A study of Ovis aries with 8 samples.

Results

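The 8 genes described here encode transcription factors that are enriched in the liver: FOXA1, FOXA2, FOXA3, CEBPA, CEBPB, ONECUT1, PROX1 and GATA4. They were taken by symbol from the 27729 genes of the deposited table, and all 8 were found. Their RNA was measured in livers of Assaf lambs that were fed milk replacer and not yet weaned, to ask how a restricted allowance changes the liver. Lambs ADL 1 to ADL 4 had free access to the replacer, set at 192 mL per kg LBW, and lambs RES 1 to RES 4 were held to 120 mL per kg LBW, with each library made from a separate lamb. At slaughter the ADL lambs were 33 to 36 days old and weighed 10.4 to 12.45 kg, and the RES lambs were 33 to 36 days old and weighed 7.5 to 8.7 kg.

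Hepatocytes keep their identity through a network of transcription factors that bind the same enhancers and each other's promoters. The FOXA proteins are pioneer factors, which open packed chromatin so that other factors can bind, and C/EBP alpha and beta drive genes of glucose, urea and acute phase metabolism. ONECUT1, PROX1 and GATA4 act in the formation of the liver from the foregut endoderm and stay on in cells of the mature organ. Much of this is known from the mouse rather than the sheep.

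None of the 8 genes passed the test between the groups in the 8 lambs. FOXA2 and CEBPB had the largest differences, with RES at 57.6% and 54.0% of the ADL level in the log-scale fit, and the other 6 genes lay between 83.6% and 110%. ADL 3, though fed ad libitum, had the lowest level of its group in FOXA2, FOXA3, CEBPA, CEBPB, PROX1 and GATA4. The same held for 58.4% of all tested genes. When ADL 3 was left out, FOXA2 fell in RES by 1.19 on the log2 scale (adjusted p = 0.0266 with limma over all genes), and the other 7 genes did not pass. In that comparison 10.0% of all genes passed, so 1 of 8 is near the background.

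Levels are given in TPM, which divide the reads of a gene by its length and scale each lamb to the same total. Between 15134039 and 17879918 reads per lamb were assigned to genes. The lowest read number of any of the 8 genes in any lamb was 131 (FOXA2), where counting alone gives an error of 8.74%. SDs follow the ± sign and cover 4 lambs unless another n is stated. ADL 3 stood apart from its group over the whole transcriptome, at 46.3 on the first principal component (38.1% of the variance), with the other ADL lambs at -46.2 to -34.3 and the RES lambs at 14.8 to 20.6. Its 10 most abundant genes held 31.0% of TPM, against 18.7 to 26.0% in the other 7 lambs. The livers carried strong hepatocyte markers, with a summed level of 100501 to 137572 TPM in ADL and 94259 to 163466 TPM in RES over 9 genes, none at 0. In bulk tissue, fewer cells of a type and less RNA per cell cannot be told apart.

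The 8 genes fell into a higher and a lower set of levels. In ADL lambs the order by mean was CEBPB (70.6 TPM), CEBPA (66.6), PROX1 (59.6), FOXA3 (43.2), FOXA2 (17.3), ONECUT1 (11.5), GATA4 (7.97) and FOXA1 (5.83). FOXA3 and FOXA2 were the only neighbours in that order whose ranges over the ADL lambs did not overlap. In RES lambs the order was CEBPA (50.7 TPM), PROX1 (48.6), FOXA3 (48.5), CEBPB (36.8), ONECUT1 (12.5), FOXA2 (8.98), GATA4 (8.71) and FOXA1 (5.71), and the only gap between neighbours without overlap lay between CEBPB and ONECUT1. CEBPB thus stood first in ADL and below FOXA3 in RES, and its range overlapped that of CEBPA in ADL and that of FOXA3 in RES. The mean level of CEBPA exceeded that of 86.7% of the 13812 genes tested, and that of FOXA1 exceeded 34.2%. Any order between genes, and any share or ratio between them, depends on the deposited gene lengths. These were 7769 nt for FOXA1, 2355 nt for FOXA2, 1775 nt for FOXA3, 1056 nt for CEBPA and 1045 nt for CEBPB.

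**Figure D1:**
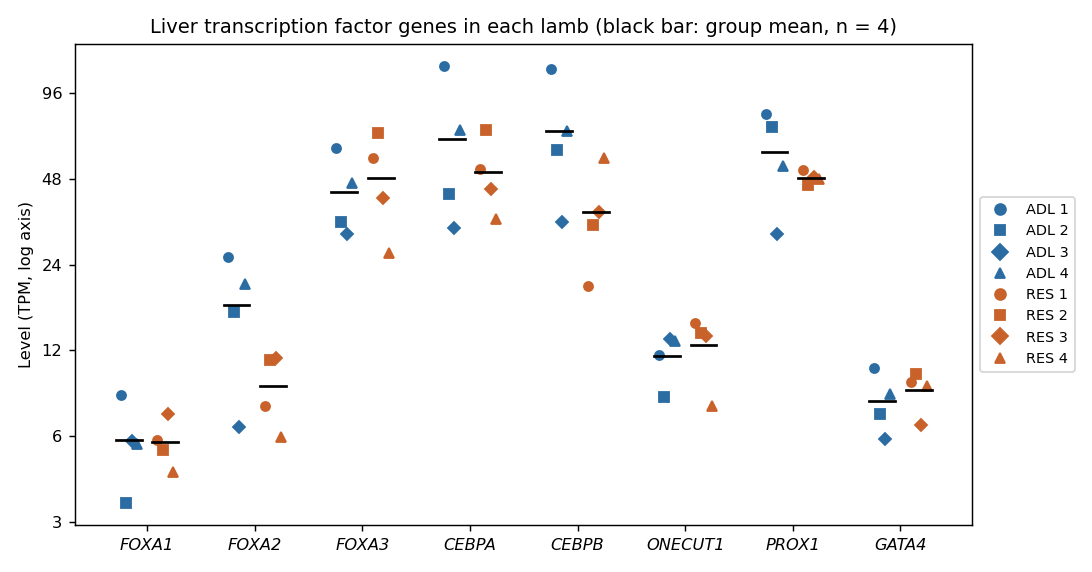
Level of each of the 8 genes in each lamb, in TPM on a log axis, with ADL lambs in blue, RES lambs in orange, a marker shape for each lamb number and a black bar at the group mean (n = 4). FOXA2 and CEBPB lie lower in RES than in ADL 1, ADL 2 and ADL 4, while ADL 3 (blue diamond) lies among or near the RES lambs, and the PROX1 levels of the RES lambs are packed between 45.6 and 51.6 TPM.

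FOXA2, the forkhead factor with roles in glucose and bile acid metabolism in the mouse liver, is listed on chromosome 13 at 40588824 to 40597768 on the minus strand with 4 exons, in the coordinates of the deposited table, whose build the sources used here do not name. Its level was 25.6, 16.4, 6.48 and 20.6 TPM in ADL 1 to ADL 4 and 7.63, 11.1, 11.3 and 5.97 TPM in RES 1 to RES 4. ADL 1, ADL 2 and ADL 4 were above every RES lamb, and ADL 3 was below all lambs except RES 4, so the groups overlapped. Over the 8 lambs the mean was 17.3 ± 8.12 TPM in ADL and 8.98 ± 2.61 TPM in RES. The log2 fold change, RES over ADL, was -0.80 (SE 0.39, 95% interval -1.66 to 0.07, limma adjusted p = 0.559), computed on log2(TPM + 0.5) as for all fold changes below.

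Without ADL 3, FOXA2 had 20.9 ± 4.62 TPM in ADL (n = 3) and the 95% interval of its log2 fold change ran from -1.76 to -0.63. RES was then at 43.7% of ADL (adjusted p = 0.0266). All genes had a median log2 fold change of -0.13 in that comparison and 0.01 after rescaling by the median of ratios, where FOXA2 had -1.05 (SE 0.21, adjusted p = 0.0297). Calls were common without ADL 3: 10.0% of 13815 genes passed, 7.59% lower and 2.42% higher in RES, and 8.33% passed after rescaling, so 1 of 8 transcription factor genes is near that background. In the 8 lambs 1 gene of 13812 passed, or 0.00724%, and it was none of these 8. In the authors' deposited table, FOXA2 had a log2 fold change of -0.67, p = 0.0137 unadjusted and 0.209 adjusted. DESeq2 had shrunk that fold change toward 0, and the deposited value before shrinkage was -0.83, the one to set beside the limma value of -0.80. An adjusted p under 0.05 was reached by 2.3% of genes in the authors' deposited table and by 0 of the 8, and an unadjusted p under 0.05 by 10.0% of genes and by FOXA2 and CEBPB.

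FOXA1, the closest relative of FOXA2 in the family, is listed with 1 exon on chromosome 18 at 46595265 to 46603036. The deposited length of FOXA1, 7769 nt, takes up nearly all of that stretch, and its TPM rest on it. In the authors' deposited table FOXA1 had a mean signal of 372, above the 249 of FOXA2, although its TPM were lower. The level of FOXA1 was 8.39, 3.49, 5.78 and 5.64 TPM in ADL 1 to ADL 4 and 5.80, 5.38, 7.18 and 4.47 TPM in RES 1 to RES 4. ADL 1 was the highest lamb and ADL 2 the lowest, and ADL 3 lay in the middle, unlike its place for FOXA2. The group means were 5.83 ± 2.00 and 5.71 ± 1.1 TPM (log2 fold change 0.01, SE 0.25, 95% interval -0.54 to 0.57, adjusted p = 0.994). The sign of so small a difference changed when ADL 2, RES 1 or RES 3 was left out and with age as a covariate.

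FOXA3, the family member with the highest RNA level here and a factor that binds many of the same sites, lies on chromosome 14 at 52357709 to 52364274. It had 61.5, 34.0, 30.7 and 46.7 TPM in ADL 1 to ADL 4 and 57.0, 69.7, 41.1 and 26.4 TPM in RES 1 to RES 4. RES 2 was the highest and RES 4 the lowest of all lambs, so the RES range enclosed the ADL range. The means were 43.2 ± 14.0 and 48.5 ± 18.8 TPM (log2 fold change 0.13, SE 0.32, 95% interval -0.59 to 0.85, adjusted p = 0.925), and the sign of this small difference changed without ADL 3 (-0.02), without RES 2 (-0.07) and with age as a covariate (-0.11).

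The summed FOXA level was similar in both groups while its make-up differed in most lambs. The sum was 66.3 ± 23.1 TPM in ADL and 63.2 ± 20.7 TPM in RES. FOXA2 made up 26.8, 30.4, 15.1 and 28.2% of it in ADL 1 to ADL 4 and 10.8, 12.9, 18.9 and 16.2% in RES 1 to RES 4. Every RES lamb was at 18.9% or less and ADL 1, ADL 2 and ADL 4 were at 26.8% or more, while ADL 3 lay among the RES lambs. FOXA3 made up 63.1 to 71.4% in ADL and 69.0 to 80.9% in RES.

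The ratio of FOXA3 to FOXA2, which no scaling of a whole library can move, was 2.40, 2.08, 4.73 and 2.27 in ADL 1 to ADL 4 and 7.47, 6.29, 3.64 and 4.43 in RES 1 to RES 4. On the log2 scale it was 1.40 ± 0.51 in ADL and 2.33 ± 0.47 in RES, a difference of 0.93 (exact permutation p = 0.0857, two-sided, n = 4 each, adjusted p = 0.214 over 3 ratios). The ratio of FOXA1 to FOXA2 was 0.213 to 0.892 in ADL and 0.486 to 0.760 in RES, with a log2 difference of 0.81 (exact permutation p = 0.143, adjusted p = 0.214, n = 4 each). The smallest p that 70 assignments allow is 0.0286, which adjustment over 3 ratios can take above 0.05. Neither ratio thus passed, and ADL 3 had the highest ADL value of both. Without ADL 3 the log2 differences were 1.18 and 1.22, and the groups did not overlap (exact permutation p = 0.0286 each, unadjusted, n = 3 and 4, the smallest these lambs allow). Leaving out that lamb favours such a separation. With any other lamb left out, the exact permutation p was 0.0857 to 0.143 for FOXA3 to FOXA2 and 0.143 to 0.286 for FOXA1 to FOXA2.

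**Figure D2:**
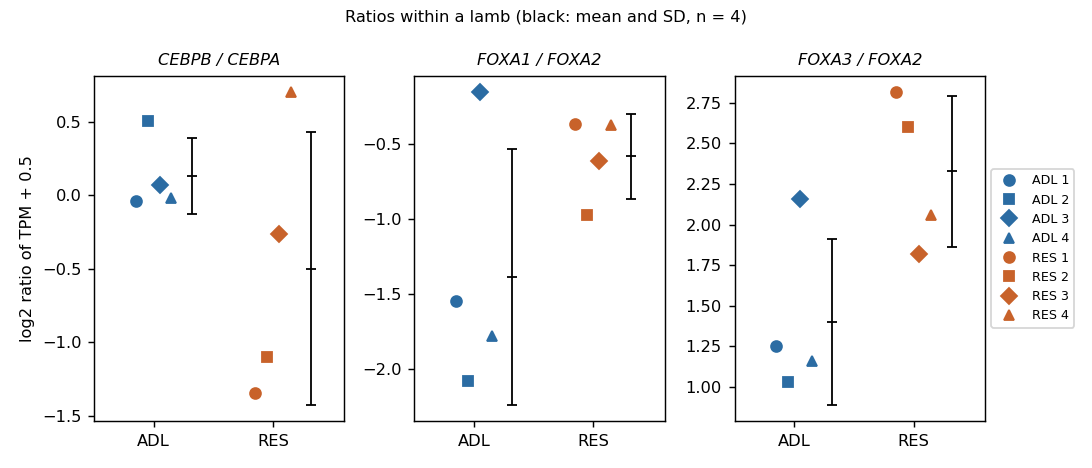
Ratios between family members within each lamb, on the log2 scale of TPM + 0.5, in 3 panels with ADL lambs in blue and RES lambs in orange, and the mean and SD of each group (n = 4) in black. ADL 3 lies above all RES lambs for FOXA1 over FOXA2 and among them for FOXA3 over FOXA2, and the other ADL lambs lie below all RES lambs in both, and in the C/EBP panel the RES lambs spread from -1.35 to 0.71 around ADL values of -0.04 to 0.51.

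CEBPB, which rises in the acute phase response and binds the same DNA motif as C/EBP alpha, is a gene of 1 exon on chromosome 13 at 77632671 to 77633731. Its level was 117, 60.6, 34.0 and 70.7 TPM in ADL 1 to ADL 4 and 20.1, 33.1, 36.9 and 57.2 TPM in RES 1 to RES 4. ADL 1, ADL 2 and ADL 4 were above every RES lamb, and ADL 3 lay below RES 3 and RES 4. The means were 70.6 ± 34.6 and 36.8 ± 15.3 TPM, with a log2 fold change of -0.89 (SE 0.39, 95% interval -1.77 to -0.01, adjusted p = 0.504). Its unadjusted p of 0.0472 was the only one under 0.05 among the 8 genes, and 9.7% of all genes had such a p.

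Without ADL 3 the log2 fold change of CEBPB was -1.19 (SE 0.35, adjusted p = 0.0670), and after rescaling -1.05 (adjusted p = 0.103). It passed with sample quality weights, which gave ADL 3 a weight of 0.160, the lowest of the 8 lambs (log2 fold change -1.24, adjusted p = 0.0302). FOXA2 passed there too (-1.09, adjusted p = 0.0195), where 14.3% of all genes did. In the authors' deposited table CEBPB had -0.63 after shrinkage toward 0 and -0.81 before it (adjusted p = 0.304).

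CEBPA, the factor that drives genes of gluconeogenesis and the urea cycle in newborn mice, is a gene of 1 exon on chromosome 14 at 42922245 to 42923329. It had 120.0, 42.5, 32.4 and 71.5 TPM in ADL 1 to ADL 4 and 52.1, 71.4, 44.3 and 34.8 TPM in RES 1 to RES 4. ADL 1 stood highest, ADL 3 lowest and RES 4 next to it, and the groups overlapped widely. The log2 fold change was -0.26 (SE 0.39, 95% interval -1.12 to 0.61, adjusted p = 0.861). It was 0.08 without ADL 1 and -0.54 without ADL 3 (adjusted p = 0.971 and 0.346).

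The ratio of CEBPB to CEBPA was 0.975, 1.43, 1.05 and 0.989 in ADL 1 to ADL 4 and 0.387, 0.464, 0.831 and 1.64 in RES 1 to RES 4. ADL 1, ADL 3 and ADL 4 had about equal levels of CEBPB and CEBPA RNA, slightly more CEBPB in ADL 3. ADL 2 and RES 4 had clearly more CEBPB, and RES 1, RES 2 and RES 3 had less. The log2 ratio was 0.13 ± 0.26 in ADL and -0.50 ± 0.93 in RES (difference -0.63, exact permutation p = 0.229, two-sided, n = 4 each, adjusted p = 0.229 over 3 ratios). Without RES 4 the difference was -1.03 and the groups did not overlap (exact permutation p = 0.0286, unadjusted, n = 4 and 3, the smallest these lambs allow). RES 4 was the RES lamb with the highest ratio, so leaving it out favours such a separation. With any other lamb left out, the exact permutation p was 0.257 to 0.457. RNA levels do not show which of the protein forms of C/EBP beta is made.

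**Figure D3:**
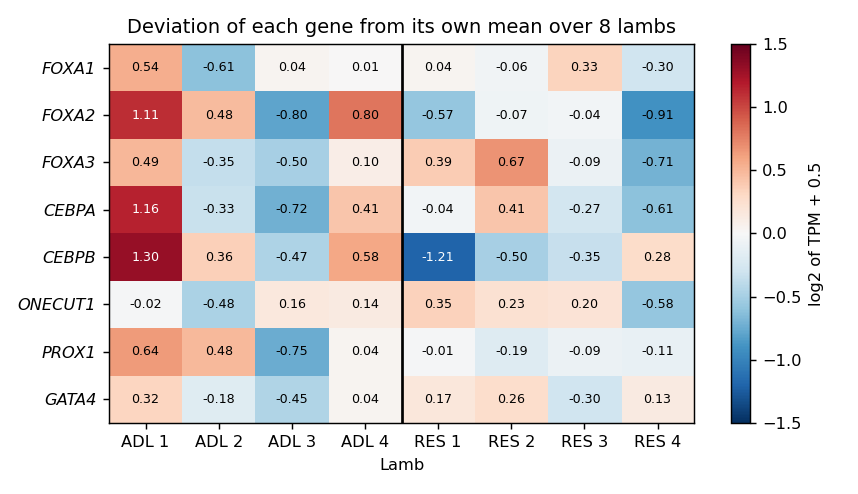
Deviation of each gene in each lamb from its own mean over the 8 lambs, in log2 of TPM + 0.5, as numbers on a colour scale from blue (low) to red (high), with a line between ADL and RES lambs. ADL 1 is high and ADL 3 low in FOXA2, FOXA3, CEBPA, CEBPB, PROX1 and GATA4, and RES 4 is low in FOXA2, FOXA3, CEBPA and ONECUT1 but not in CEBPB.

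ONECUT1, also called hepatocyte nuclear factor 6, acts in bile duct formation and in hepatocyte glucose metabolism in the mouse, and lies on chromosome 7 at 54555454 to 54594481. Its level was 11.5, 8.25, 13.2 and 12.9 TPM in ADL 1 to ADL 4 and 15.0, 13.8, 13.5 and 7.68 TPM in RES 1 to RES 4. RES 1, RES 2 and RES 3 lay above every ADL lamb, while RES 4 lay below all. The log2 fold change was 0.10 (SE 0.24, 95% interval -0.43 to 0.63, adjusted p = 0.925). Without RES 4 it was 0.31 (adjusted p = 0.682), and it was slightly below 0 without ADL 2 or RES 1.

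PROX1, a homeodomain factor that binds HNF4A and NR5A2 and lowers their activity, and that also marks lymphatic endothelium, lies on chromosome 12 at 67588548 to 67648728. It had 81.1, 72.9, 30.8 and 53.4 TPM in ADL 1 to ADL 4 and 51.6, 45.6, 49.0 and 48.1 TPM in RES 1 to RES 4. The RES lambs differed little, with an SD of 0.07 on the log2 scale against 0.62 in ADL, while ADL 3 was the lowest lamb and the other ADL lambs the highest. An SD among RES lambs as small as that of PROX1 was rare, with 5.86% of tested genes below it, and in ADL 84.8% of genes were below it. The median SD over all tested genes was 0.351 in ADL and 0.202 in RES, so the wider ADL spread was not particular to PROX1.

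The mean level of PROX1 was 59.6 ± 22.4 TPM in ADL and 48.6 ± 2.47 TPM in RES, with a log2 fold change of -0.20 (SE 0.27, limma adjusted p = 0.847). Without ADL 3 it was -0.49 (SE 0.16, adjusted p = 0.0829), and -0.34 after rescaling (adjusted p = 0.173). FOXA2, CEBPB and PROX1 were the members in which every RES lamb lay below ADL 1, ADL 2 and ADL 4. Such a separation without ADL 3 was seen in 21.7% of all genes, and in 27.8% in either direction. In the 8 lambs the groups overlapped in all 8 members and did not overlap in 4.48% of genes.

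GATA4, a zinc finger factor of the early liver and, in the mouse, of sinusoidal endothelial cells, lies on chromosome 2 at 104334440 to 104383703. Its level was 10.4, 7.20, 5.87 and 8.44 TPM in ADL 1 to ADL 4 and 9.29, 9.94, 6.57 and 9.02 TPM in RES 1 to RES 4. It was the steadiest of the 8 genes, with the highest lamb at 1.77 times the lowest, against 5.81 times for CEBPB. The log2 fold change was 0.13 (SE 0.20, 95% interval -0.32 to 0.59, adjusted p = 0.865) and 0.00 without ADL 3.

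**Figure D4:**
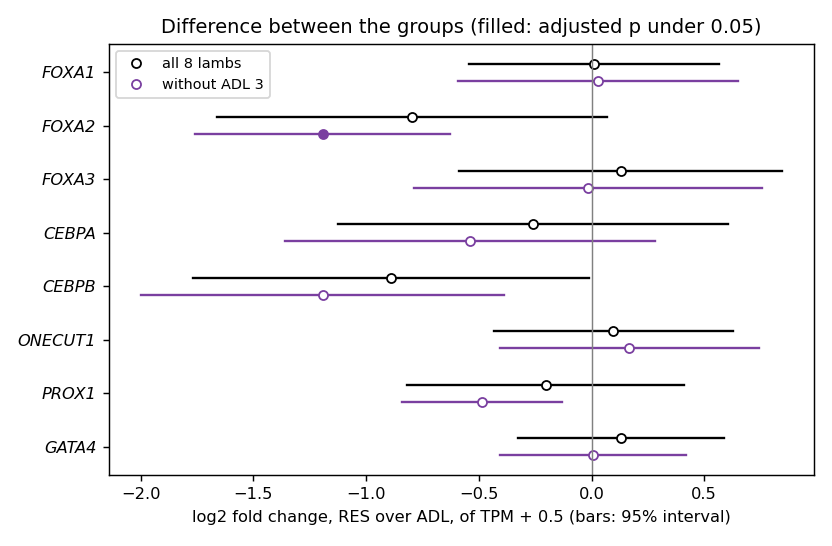
Log2 fold change, RES over ADL, of TPM + 0.5 for each of the 8 genes with its 95% interval, in black for all 8 lambs and in purple without ADL 3, with filled points where the adjusted p was under 0.05. The filled point is FOXA2 without ADL 3, at -1.19, and the intervals of FOXA1, FOXA3, CEBPA, ONECUT1 and GATA4 include 0 in both fits.

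By the sign of the log2 fold change, which is how genes are counted as higher or lower in RES here and in the lists below, 4 of the 8 genes were higher and 4 lower, with a median of -0.10. The sign can differ from that of the TPM means where these are close, as in FOXA1. Of all genes tested, 6014 of 13812 were higher and 7798 lower with a median of -0.04. ADL 3 was the lowest ADL lamb in 6 of the 8 genes (75.0%) and in 58.4% of all tested genes. The members most alike across lambs were FOXA1 and ONECUT1, whose deviations from their own means differed by a root mean square of 0.28 on the log2 scale, and then FOXA3 and CEBPA (0.33). CEBPB and ONECUT1 were least alike (0.94). The members' own deviations from their means were of the same size, from 0.26 in GATA4 to 0.73 in CEBPB.

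Among all tested genes with a symbol, the closest to each member were found by the same measure over the 8 lambs. MRAS, a small GTPase, was closest to FOXA2 (0.134), with 10.8, 7.24, 3.04 and 9.74 TPM in ADL 1 to ADL 4 and 3.08 to 5.66 TPM in RES. It was followed by POLR3G (0.17), a subunit of RNA polymerase III. MTFP1, a mitochondrial fission protein, was closest to CEBPB (0.218), and then TDO2 (0.286), which opens the tryptophan ring, with 362 to 833 TPM in ADL and 223 to 479 TPM in RES. BTAF1 (0.0588) and TIMM8B (0.0637) followed PROX1, NMT2 (0.146) and GOT2 (0.164) followed CEBPA, and HSD17B11 (0.143) and WDR44 (0.152) followed FOXA3. FAM103A1 and FN3KRP were closest to FOXA1, RNF144A was close to ONECUT1, and LYPLA2 to GATA4 (0.0821 to 0.12). None of these genes passed between the groups (adjusted p = 0.382 to 0.998).

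Genes beside the members in the table's coordinates were read for shared patterns. An uncharacterized gene, LOC105609021, lies 12375 bases from FOXA2 on the same strand and had 3.35, 2.92, 1.54 and 3.50 TPM in ADL 1 to ADL 4 and 1.10, 2.21, 1.69 and 0.754 TPM in RES 1 to RES 4. ADL 3 and RES 4 were the low lambs of their groups there as in FOXA2, and the log2 fold change was -0.79 (SE 0.30, adjusted p = 0.453) and -1.01 without ADL 3 (adjusted p = 0.0507). LOC105616764, also uncharacterized, lies 617 bases from CEBPB on the opposite strand and had 1.40 ± 0.32 TPM in ADL and 0.857 ± 0.124 TPM in RES (log2 fold change -0.48, adjusted p = 0.477). LOC105616575 overlaps PROX1 on the opposite strand, at 4.29 ± 1.09 TPM in ADL and 6.15 ± 1.56 TPM in RES, a higher mean in RES where PROX1 had a lower one (log2 fold change 0.47, adjusted p = 0.572). The sources used here do not say whether the authors' counting used strand, so reads of PROX1 and this gene cannot be told apart with certainty, though it held 29 to 67 reads per lamb against 2957 to 6565 for PROX1.

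Other factors of the hepatocyte network were read from fixed lists. Of 12 tested hepatocyte nuclear factors and liver homeobox genes, none passed in the 8 lambs, 6 were higher and 6 lower in RES, and the median log2 fold change was 0.02. Without ADL 3, HNF4G fell (-1.09, adjusted p = 0.0127) and CUX2 rose (2.68, adjusted p = 0.0288). HNF4A, named here although outside the rule for named genes, was the most abundant of the list, with 174 TPM in ADL and 155 TPM in RES (log2 fold change -0.09, adjusted p = 0.939). ONECUT2, the paralog of ONECUT1, was higher than it, at 53.4 and 51.4 TPM, and is also named outside that rule, and ONECUT3 was listed at 0 in all lambs.

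Of 10 tested C/EBP and PAR bZIP relatives none passed in the 8 lambs (6 higher, 4 lower, median 0.12). ATF5, a stress response factor, had the smallest p, with 101 TPM in ADL and 526 TPM in RES (log2 fold change 2.30, adjusted p = 0.166). Without ADL 3, 3 members of this list rose and 2 fell, among them ATF5 (2.50, adjusted p = 0.0110), HLF (1.04, adjusted p = 0.0401), CREB3L3 (-1.85, adjusted p = 0.0135) and CEBPZ (-0.57, adjusted p = 0.0319). CEBPZ did not pass after rescaling (adjusted p = 0.0522). It is counted in this list by its name, although it is not a bZIP factor. Of 8 tested forkhead factors outside the FOXA group, 5 were higher and 3 lower in RES, and none passed with or without ADL 3, with the smallest p in FOXO3 (log2 fold change 0.42, adjusted p = 0.703). Of 7 GATA factors and cofactors 3 were tested, and GATA6, at 8.67 TPM in ADL and 9.60 TPM in RES, lay as near between groups as GATA4 (log2 fold change 0.13, adjusted p = 0.841). GATA1, GATA2, GATA3 and GATA5 were under the minimum mean of 1 TPM.

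Genes known as FOXA or C/EBP targets moved in both directions. Of 13 tested FOXA targets none passed in the 8 lambs (8 higher, 5 lower, median 0.06), with the smallest p in TDO2 (log2 fold change -0.93, SE 0.31, adjusted p = 0.382). Without ADL 3, CPS1, the entry enzyme of the urea cycle (-1.18, adjusted p = 0.0117), TAT of tyrosine breakdown (-0.96, adjusted p = 0.0265) and TDO2 (-1.13, adjusted p = 0.0456) fell, and PCK1 of gluconeogenesis rose (0.82, adjusted p = 0.0389). TDO2 did not pass after rescaling (adjusted p = 0.0800). Of 12 tested C/EBP targets, 8 of them also on the FOXA list, none passed in the 8 lambs (8 higher, 4 lower, median 0.36). CPS1 had the smallest p there (-0.88, adjusted p = 0.387), and without ADL 3 the liver glycogen synthase GYS2 fell as well (-2.01, adjusted p = 0.0138). Albumin (ALB), a target of both families, had 54853 TPM in ADL and 79495 TPM in RES (log2 fold change 0.46, adjusted p = 0.789) and is named outside the rule.

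Of 10 acute phase genes, in which C/EBP beta acts, 8 had their highest level of all lambs in ADL 3, the ADL lamb with the lowest CEBPB level (34.0 TPM). The share of all tested genes that were highest in ADL 3 was not computed. The list named 14 genes, and HP, SAA3, SAA4 and SERPINA3 were not matched, so they are not covered. RES 4, the RES lamb with the highest CEBPB level (57.2 TPM), had the highest LBP of all lambs (1961 TPM) and 5607 TPM of CRP, against 1535 to 1888 TPM in the other RES lambs. Fibrinogen beta (FGB), chosen after its values were seen, had 53575 TPM in ADL 3 and 39820 TPM in RES 4, against 10710 to 27848 TPM in the other ADL lambs and 14496 to 15855 TPM in the other RES lambs. Of 10 tested acute phase genes, 3 were higher and 7 lower in RES (median -0.29) and none passed. CRP had the smallest p (4996 and 2696 TPM, log2 fold change -1.10, adjusted p = 0.408). Without ADL 3 the median was 0.17 and A2M, matched as LOC101122940, rose (1.43, adjusted p = 0.0358).

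Markers of other cell types that make these factors were read beside them. FOXA2 and ONECUT1 are also made in bile duct cells, and 9 of 10 cholangiocyte markers were lower in RES (median log2 fold change -0.60, none passed). Keratin 19 (KRT19, matched as LOC101117946) had 8.19 TPM in ADL and 2.63 TPM in RES, without overlap (log2 fold change -1.44, adjusted p = 0.272). The summed cholangiocyte markers were 102 to 239 TPM in ADL and 97.0 to 209 TPM in RES, none at 0. Most of the sum came from CLDN4, at 51.9 to 108 TPM in all lambs, and in ADL 3 and RES 4 also from SPP1, at 79.0 and 81.9 TPM. EPCAM had 23.8, 7.04, 14.3 and 10.7 TPM in ADL 1 to ADL 4 and 7.74, 3.03, 6.82 and 2.58 TPM in RES 1 to RES 4. Both EPCAM and FOXA2 were highest in ADL 1. In ADL 3, however, EPCAM had its next highest level of all lambs, while FOXA2 had its lowest of the ADL lambs. CLDN4, SPP1 and EPCAM were chosen after their values were seen. The part of bile duct cells in the FOXA2 difference was not tested.

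Sinusoidal endothelial markers, for GATA4, summed to 371 to 606 TPM in ADL and 383 to 532 TPM in RES (3 higher, 7 lower of 10, none at 0). LYVE1 had the smallest p (log2 fold change -0.71, adjusted p = 0.524) and fell without ADL 3 (-0.99, adjusted p = 0.0490; 0.0687 after rescaling). Lymphatic endothelial markers, for PROX1, summed to 61.0 to 79.3 TPM in ADL and 50.9 to 64.7 TPM in RES over 6 genes, none at 0 in all lambs. MMRN1 led that list (-0.80, adjusted p = 0.416). RELN, at 15.4 to 26.8 TPM, is on both the lymphatic and the stellate cell list and counts in both sums. Macrophage markers, for CEBPA and CEBPB, summed to 1218 to 1491 TPM in ADL and 1434 to 1666 TPM in RES (6 higher, 3 lower of 9, none at 0), with C1QA the gene of smallest p (0.40, adjusted p = 0.453). Neutrophil markers summed to 9.06 to 33.5 TPM in ADL, highest in ADL 3, and 14.0 to 22.1 TPM in RES, with 3 of 4 tested higher in RES (median log2 fold change 0.26), and CXCR2, the one that was lower, had the smallest p (-0.47, adjusted p = 0.596). Stellate cell markers summed to 393 to 512 TPM in ADL and 290 to 442 TPM in RES, with the smallest p in COL3A1 (-0.37, adjusted p = 0.557). The part of these cells in the levels of the 8 factors was not tested.

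**Figure D5:**
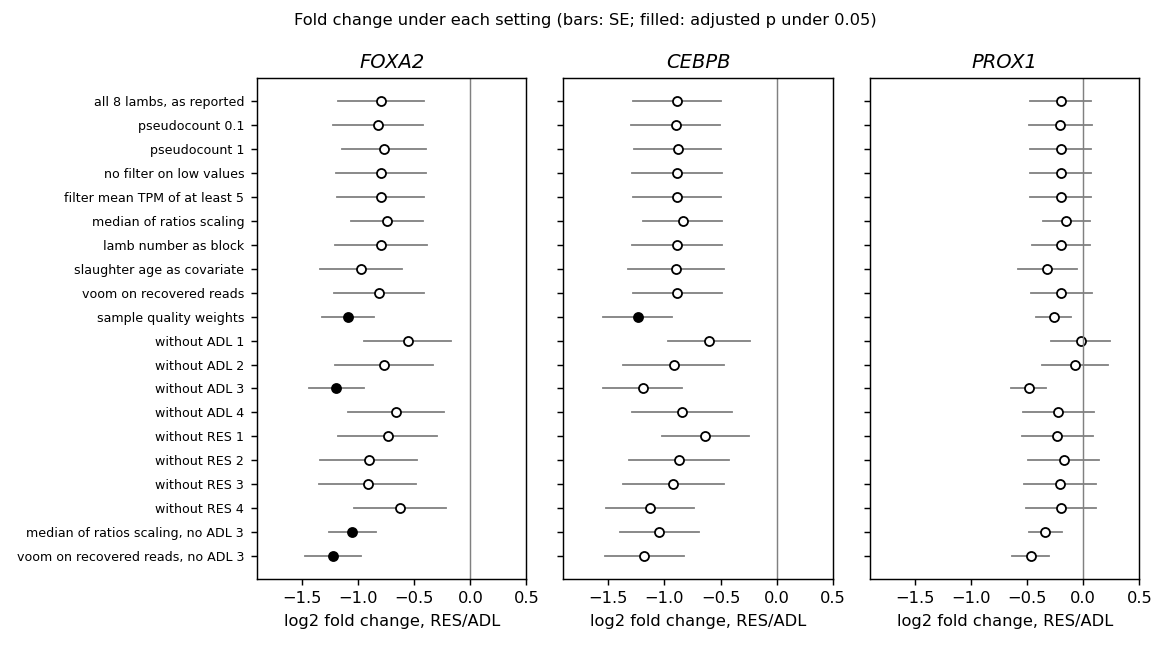
Log2 fold change, RES over ADL, of FOXA2, CEBPB and PROX1 under each of 20 settings, with the SE as a bar and filled points where the adjusted p was under 0.05. All values are below 0, from -1.22 to -0.56 for FOXA2, -1.24 to -0.60 for CEBPB and -0.49 to -0.02 for PROX1, and the filled points are those in which ADL 3 was left out (FOXA2) or given a low weight (FOXA2 and CEBPB).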

How the data were processed

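The authors sequenced polyadenylated RNA of 8 livers from both ends on an Illumina HiSeq, per the labels' protocols. The submitters' processing notes name bcl2fastq (1.8.4) and, as the authors' test, DESeq2 (1.12.4); the sources used here name no aligner, counter or build. The deposited TPM, one column per lamb, and the deposited DESeq2 results (per the file headers a mean signal, log2 fold changes, a test score, p-values and adjusted p-values) are the authors'. Multiplying TPM by the deposited gene length gave whole multiples of 1 step per lamb (100% of values within 0.001), which recovered the reads per gene.

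Genes with a mean of at least 1 TPM were tested on log2(TPM + 0.5) with limma 3.58.1 in R 4.3.3 (trended prior, two-sided, Benjamini-Hochberg over all genes, threshold 0.05). Ratios were compared by exact permutation tests. The fit was checked on simulated reads. Gene lists (155 entries, 146 matched, 6 of them through RefSeq symbols) are described by counts and medians. Named genes are all members, in each list up to 4 that passed or the gene with the smallest p, and the 2 genes most like each member; the rule was also applied to the fit without ADL 3. Some genes that this rule names are not reported here. The members and lists were chosen with earlier results of these data known.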

Additional observations from a re-analysis of the deposited data

Results flagged for a closer look

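Of 22 sets of 4 values (8 genes and 3 ratios in each group), 3 had a lamb whose distance to its nearest neighbour took up more of the range of the group than the 95% critical value of Dixon's test for 4 values allows. Chance flags about 1 in 20 such sets, and all 3 are ratios. The test was run on TPM and plain ratios, not on the log2 scale on which the ratios were compared above. Whether a lamb is flagged can depend on that scale, so these 3 flags are not read as an excess over chance. The FOXA1 to FOXA2 ratio of ADL 3 was 0.892, against 0.213 to 0.328 in the other ADL lambs. The FOXA3 to FOXA2 ratio of ADL 3 was 4.73, against 2.08 to 2.40. Both share the low FOXA2 value of that lamb. The CEBPB to CEBPA ratio of ADL 2 was 1.43, against 0.975 to 1.05.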

How the results depend on the processing

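No member changed its call under other pseudocounts, other filters, median-of-ratios scaling, age as a covariate or voom with all 8 lambs. The lamb numbers showed no clear pairing of the samples (correlations of same-numbered lambs -0.04 to 0.16 across genes, and 3 of 8 lambs correlated best with their own number). These 4 pairs are too few to exclude one. With lamb number as a block FOXA2 had -0.80 (adjusted p = 0.618), no member changed its call, 0 genes passed, and the FOXA3 to FOXA2 log2 ratio differed by 0.93 (exact p = 0.25). The count of all genes was 1, and 0 without a filter (1841 at an unadjusted p under 0.05) and 0 after rescaling (1743), where limma was used. It was 1969 with quality weights, with 2 members among them (FOXA2 -1.09, CEBPB -1.24). Without ADL 3 it was 1150 after rescaling (616 higher, 534 lower, against 334 and 1048 of 1382 before) and 1364 with voom, each with 1 member, FOXA2 (-1.05 and -1.22). These last settings were chosen after seeing the data. With age as a covariate FOXA1 had -0.065 and FOXA3 -0.11, opposite to their signs without it; the cause was not tested.

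With each lamb left out in turn, the count of all genes ran from 0 to 1382 and of members from 0 to 1. Log2 fold changes ran from -0.19 to 0.19 for FOXA1, -1.19 to -0.56 for FOXA2, -0.072 to 0.39 for FOXA3, -0.54 to 0.084 for CEBPA, -1.19 to -0.60 for CEBPB, -0.046 to 0.31 for ONECUT1, -0.49 to -0.02 for PROX1 and 0.00 to 0.26 for GATA4. The log2 ratio differences ran from -1.03 to -0.35 (CEBPB to CEBPA), 0.58 to 1.22 (FOXA1 to FOXA2) and 0.76 to 1.18 (FOXA3 to FOXA2). The lowest values of FOXA2, CEBPA, CEBPB, PROX1 and GATA4 came without ADL 3 and their highest without ADL 1.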

Other observations

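NEIL2, a DNA glycosylase that lies 7501 bases from GATA4 on the same strand, varied far more between lambs than GATA4 did, with 6.26, 2.94, 20.3 and 13.8 TPM in ADL 1 to ADL 4 and 37.4, 5.45, 23.6 and 34.7 TPM in RES 1 to RES 4. The groups overlapped (log2 fold change 1.20, limma adjusted p = 0.625, SE 0.68). SYMPK, on the opposite strand beside FOXA3, was at 7.29 ± 0.62 TPM in ADL and 7.55 ± 0.44 TPM in RES (log2 fold change 0.05, adjusted p = 0.936).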
